A study of Mus musculus with 54 samples.

Results

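The red cell genes Car1, Car2, Hemgn, Tfrc, Alas2, Slc4a1, Rhag, Ermap and Rhd were followed in single mouse blood-forming cells. They were chosen by name, with earlier results of these data known, and are 9 of the 23154 genes in the deposited count table. Red cells mature from stem cells through megakaryocyte-erythroid progenitors (MEP) to erythroblasts. On the way the cells first gain regulators and receptors, then haem enzymes and membrane proteins. Car1 and Car2 are carbonic anhydrases, which interconvert carbon dioxide and bicarbonate, and Hemgn is a nuclear protein of blood progenitors and erythroblasts. Tfrc is the receptor that takes up iron-loaded transferrin and is also used by dividing cells of other lineages. Alas2 begins haem synthesis in the erythroid lineage. Slc4a1 (band 3, the anion exchanger), Rhag, Rhd and Ermap are proteins of the erythroid membrane.

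Transplanted cells (1031 annotated cells, all with the phenotype label GFPP) were collected 1, 3, 5 or 7 days after transplantation from bone marrow, spleen or both. They numbered 61, 125, 336 and 389 cells in 3, 3, 7 and 10 libraries on the successive days, and 120 further cells came from 3 libraries that pooled days. The series title names transplanted haematopoietic stem cells as the input, and no label states the exact gate of the input. Steady state cells (1270 cells in 28 sorted populations) came from bone marrow, spleen or both, and ranged from stem cell gates (iHSC: LT_HSC, ESLAM, ESLAMSK, Fraction I and Fraction III) and multipotent progenitor gates (iMPP) to committed progenitors, erythroblast gates (EryA, EryB) and mature blood cells. All mice were C57BL/6 aged 8 to 10 weeks, and the animals behind a library are not stated, so p-values measure the spread between libraries.

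The 3' ends of mRNA were counted by a modified Smart-seq2 method, without molecular identifiers. Annotated cells held 20013 to 1943315 counts, with a median of 203971. Levels are CPM, counts per 1000000, of the summed cells of a library, averaged over libraries, and a cell was called detected at 1 count or more. Reads of this kind are not independent molecules, so intervals on single libraries cover counting error only. Genes differ in how well their 3' ends are captured, so levels are compared between cells and not between genes.

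The genes lie on 6 chromosomes (3, 4, 11, 16, 17 and X in GRCm38), with Car1 on the minus strand at chr3:14766216-14808368 and Car2 on the plus strand at chr3:14886273-14900770. Only 77904 bases separate these 2 genes. The stretches before 5 RefSeq transcription starts (GRCm38.p6) are shown because the motif of the erythroid GATA factors lies in them. Capitals mark GATAA on either strand, written TTATC where it lies on the opposite strand, and each stretch is given on its gene's strand.
Alas2, chrX:150547297-150547416: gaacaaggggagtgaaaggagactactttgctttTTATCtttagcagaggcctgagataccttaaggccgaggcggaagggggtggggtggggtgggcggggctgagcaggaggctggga
Hemgn, chr4:46404184-46404303: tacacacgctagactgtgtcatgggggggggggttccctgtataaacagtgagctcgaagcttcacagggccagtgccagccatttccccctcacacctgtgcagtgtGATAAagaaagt
Rhag, chr17:40811029-40811148: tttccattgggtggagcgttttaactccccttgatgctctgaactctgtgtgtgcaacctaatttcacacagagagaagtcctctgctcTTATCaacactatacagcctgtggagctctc
Rhd, chr4:134864416-134864535: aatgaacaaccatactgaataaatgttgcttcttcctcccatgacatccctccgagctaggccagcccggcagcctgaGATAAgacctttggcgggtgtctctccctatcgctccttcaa
Ermap, chr4:119189996-119190115: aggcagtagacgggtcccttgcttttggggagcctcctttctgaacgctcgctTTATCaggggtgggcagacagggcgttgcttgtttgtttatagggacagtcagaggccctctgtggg
Counting both strands of 300-base windows, from 250 bases before to 50 bases after a start, GATAA was in 5 of the 7 windows of 6 matched genes, against 25.4% of 32851 mouse promoter windows. The matched genes were Alas2, Hemgn, Rhag, Rhd, Ermap and Tfrc, and the Tfrc windows held no GATAA. The KLF motif CCNCNCCC was in 5 of the 7 windows, against 49.5% of all windows. Both motifs were in 3 of the 7 windows, against 8.67%. A match is a description of letters and says nothing of binding here.

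Car1 had its steepest gradient among the steady state populations. It reached 5741 CPM in CMP cells (95% Poisson interval 5705 to 5777, 1 library of 22 cells) and 5286 CPM in MEP cells (5246 to 5326, 1 library of 19 cells). MPP2 cells followed at 1211 ± 851 CPM (SD, n = 3 libraries), EryA cells at 576 ± 144 CPM (n = 2) and MPP1 cells at 516 ± 366 CPM (n = 2). EryB cells held 106 ± 92.7 CPM (n = 2), at 40.04 CPM in library L4 and 171 CPM in L42. Car1 was thus at its highest in the progenitors just before the erythroblast gates, and macrophages had no Car1 count. Among the 27 pairs of neighbouring populations in this order, 25 differed by less than the larger SD, and MEP stood beyond it from MPP2.

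The stem cell gates were uneven for Car1. Across 12 iHSC libraries it ranged between 0 CPM (L1, L73 and L74) and 1372 CPM (L49), with a median of 25.5 CPM. Fraction III alone covered this whole range, at 360 ± 573 CPM (n = 5), with 0 CPM in L50 and 1372 CPM in L49. The label of L49 names other multipotent gates than its annotation, but it does name the Fraction III gate.

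Car2, unlike Car1, was detected in every cell of all the stem cell and multipotent gates. Erythroblasts and the late progenitors were highest: 7306 ± 5174 CPM in EryB (n = 2), 4297 CPM in MEP, 3916 ± 1224 CPM in EryA (n = 2) and 3249 CPM in CMP. The gates LT_HSC, ESLAM, ESLAMSK, Fraction I, Fraction II, Fraction III and MPP1 formed a second tier of 1067 to 1690 CPM. MPP4 had 409 ± 67.8 CPM (n = 3), MPP3 249 ± 296 CPM (n = 2) and GMP 107 CPM. Macrophages had the lowest level, 0.72 CPM.

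Hemgn had a shallower range. EryA cells had 396 ± 110 CPM (n = 2) and EryB cells 321 ± 303 CPM (n = 2), and the next populations, Fraction II and MPP1, had 82.7 ± 16.7 and 82.4 ± 38.2 CPM (n = 2 each). CMP and MEP cells held 40.4 and 20.4 CPM, below the means of LT_HSC (55.1 ± 17.8 CPM, n = 2) and Fraction I (59.97 ± 64.9 CPM, n = 3). None of its 27 neighbouring pairs differed by more than the larger SD. Hemgn had no count in granulocytes, monocytes or macrophages.

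Tfrc was detected in over 50% of cells in 22 of the 28 populations, and in 8 of them after thinning to 20000 counts per cell. It was at 445 ± 35.3 CPM in EryB (n = 2), 201 ± 109 CPM in EryA (n = 2), 183 CPM in CMP and 118.3 CPM in MEP. MPP3 cells came next at 100.01 ± 52.6 CPM (n = 2), and CLP cells had 88.3 ± 22.9 CPM (n = 2). NK cells had the least, 1.22 ± 0.97 CPM (n = 2). EryB lay beyond the larger SD from its neighbour EryA.

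Alas2 and Slc4a1 were the late genes. Alas2 was at 3217 ± 2392 CPM in EryB and 767 ± 613 CPM in EryA (n = 2 each), and Slc4a1 was at 1270 ± 404 CPM and 395 ± 61.2 CPM. In the next population, LMPP, Alas2 was at 52.1 ± 70.04 CPM and Slc4a1 at 22.4 ± 18.6 CPM (n = 2), and both LMPP libraries also held erythroblasts. MEP cells had 0.16 CPM of Alas2 and no count of Slc4a1, so neither gene marked the MEP gate.

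The membrane genes Rhag, Rhd and Ermap were shared by erythroblasts, MEP and CMP. Rhag had 223 ± 95.1 CPM in EryB, 184 ± 119 CPM in EryA (n = 2 each), 98.7 CPM in MEP and 75.7 CPM in CMP. Rhd stood at 888 ± 127 CPM in EryB, 841 ± 768 CPM in EryA, 247 CPM in MEP and 156 CPM in CMP. Ermap showed 360 ± 203 CPM in EryB, 195 ± 151 CPM in EryA, 252 CPM in MEP and 269 CPM in CMP. The MPP2 gate came next for Rhag (13.4 ± 16.6 CPM) and Ermap (86.02 ± 88.98 CPM, n = 3), and LMPP for Rhd (36.1 ± 43.4 CPM, n = 2).

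**Figure D1:**
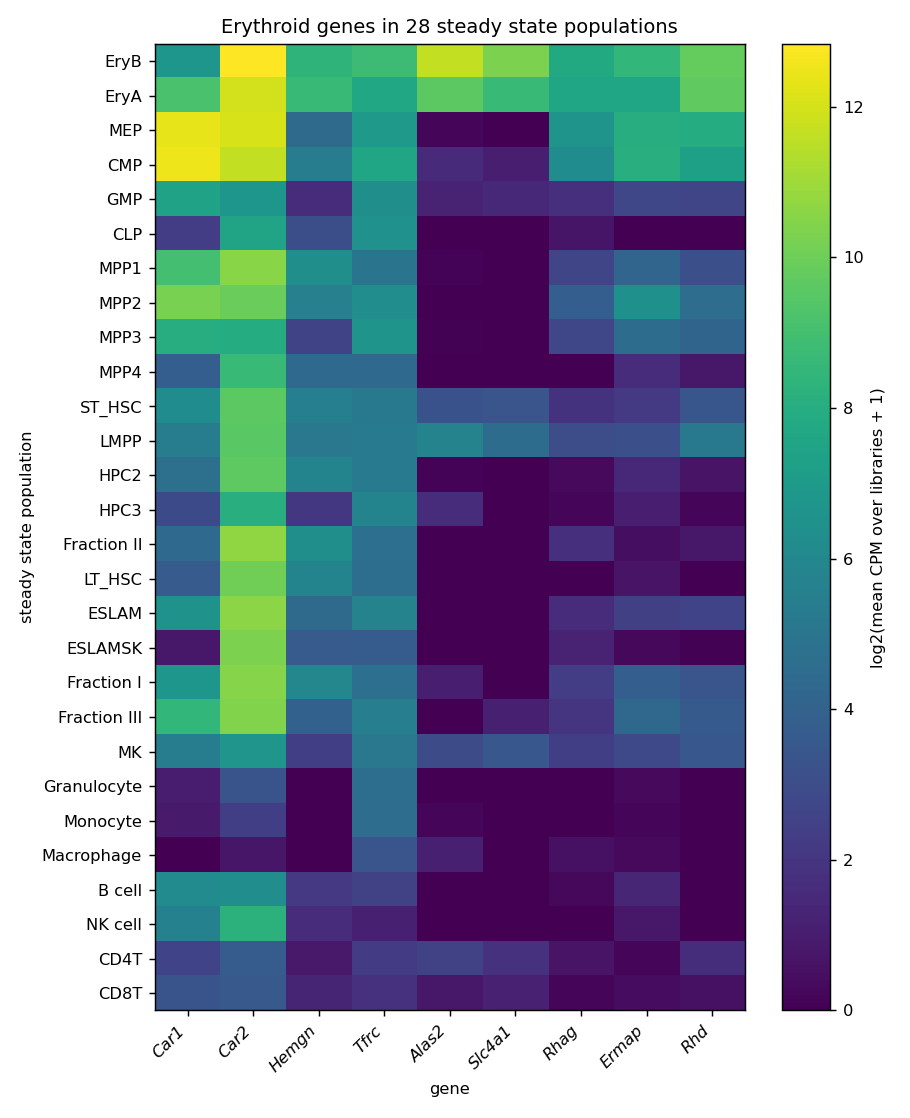
Mean level of each gene (columns) in the 28 steady state populations (rows), as log2 of mean CPM over libraries plus 1, on one colour scale. Car1 is brightest in MEP and CMP (5286 and 5741 CPM), Alas2 and Slc4a1 are bright in EryB and EryA, and Car2 is bright in erythroblasts, MEP, CMP and the stem cell gates.

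Across the 28 populations, levels moved together in blocks. Alas2 and Slc4a1 had a Pearson r of 0.98 on mean log values, Rhag and Rhd 0.97 and Car1 and Ermap 0.86, whereas Car1 and Alas2 had 0.16. The genes most like Car1 by the same measure were Gm15915 (0.92), Sphk1 (0.92) and Klf1 (0.89), the last an erythroid transcription factor. Those most like Car2 were Sept8 (0.88), Gstm5 (0.88) and Slc43a1 (0.87). Hemgn was followed most closely by Sox6 (0.87), Cd59a (0.86) and Isca1 (0.85), and Tfrc by genes that included Atpif1 (0.84) and Slc43a3 (0.82). These are descriptions over 28 points that share libraries and depth.

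Co-detection was counted after each cell was thinned to 20000 counts. All 9 genes were found together in 13 of 37 EryA cells and 6 of 33 EryB cells, and in no cell of the other populations or of the 4 collection days. At least 5 of the 9 were found in 27 of 37 EryA, 20 of 33 EryB, 18 of 22 CMP, 11 of 19 MEP, 4 of 19 MK, 13 of 72 MPP2 and 5 of 31 LMPP cells. Lower shares were found in ST_HSC (3 of 41), Fraction III (4 of 66), MPP3 (4 of 76) and Fraction I (5 of 102). ESLAM (2 of 58) and MPP1 (2 of 72) were lower still, and the other populations had no such cell. Among transplanted cells, at least 5 were found in 0 of 61 on day 1, 0 of 125 on day 3, 2 of 336 on day 5 and 4 of 389 on day 7.

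The erythroblast gates were not uniform. The annotation's predicted types split the 70 EryA and EryB cells into 29 tME2, 31 tME1 and 10 tME3 cells, and the tME2 cells held most of the erythroid signal. Alas2 was at 2609, 4926 and 5316 CPM in the tME2 cells of libraries L16, L42 and L4, against 26.95, 231 and 31.8 CPM in the tME1 cells of the same libraries. The tME2 value was the higher one in each of the 3 libraries.

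Other genes split the same way. Car2 was at 18572 ± 7580 CPM in tME2 and 375 ± 297 CPM in tME1 cells (SD, n = 3 libraries each). Hemgn was at 1901 ± 945 and 43.5 ± 32.0 CPM, Rhd at 2851 ± 355 and 67.5 ± 43.9 CPM, and Ermap at 846 ± 12.8 and 10.3 ± 12.5 CPM, tME2 first. Car1 was at 356 ± 428 CPM in tME2 and 55.4 ± 53.2 CPM in tME1 cells, and its highest value lay in the 3 tME3 cells of L16 (2588 CPM). Those 3 cells held 2144 of the 2295 erythroblast Car1 counts of L16. Types were made from the same expression values, so these are descriptions without a test.

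In the tME1 cells of these gates, neutrophil genes were abundant. The 8 genes of the neutrophil marker list summed to 98886 to 299057 CPM in tME1 and 14578 to 42628 CPM in tME2 cells, across the same 3 libraries. S100a8 alone was at 103266 ± 60837 CPM in tME1 cells (n = 3). Of the erythroblast markers, Klf1, Gata1 and Epor were found, and Hbb-bt and Hba-a1 are listed at 0 in every cell. Of the 9 globin genes looked up and present in the table, 7 are listed at 0 in every annotated cell. The adult globins among these 9 therefore cannot be used to check these gates. Hbq1b, a globin gene not looked up here, did have counts.

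**Figure D2:**
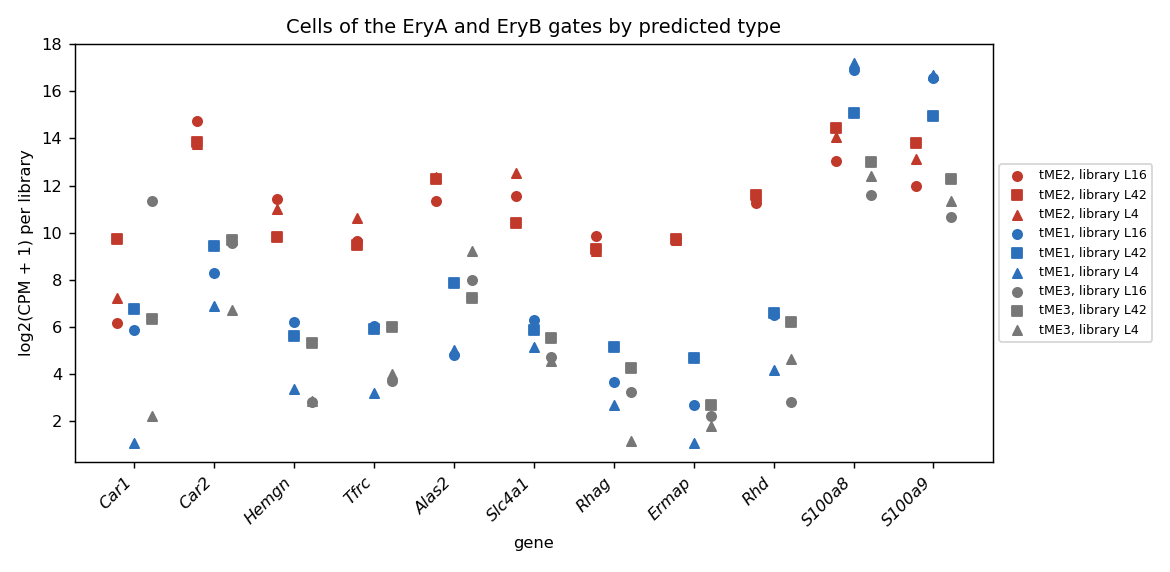
Level of the 9 genes and 2 neutrophil genes in cells of the EryA and EryB gates, as log2(CPM + 1), with colour for predicted type and shape for library. The tME2 cells lie above the tME1 cells for all 9 genes within each library (Alas2 at 2609 to 5316 CPM against 26.95 to 231 CPM), and below them for S100a8 and S100a9.

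No transplanted cell had the predicted type tME2, whereas 50 were tME1 and 2 were tME3. The transplanted tME1 cells of 4 libraries had Car1 at 10.9 ± 18.7, Car2 at 30.8 ± 19.8 and Hemgn at 0.68 ± 0.83 CPM (n = 4). Steady state tME1 cells had 41.5 ± 51.5, 285 ± 302 and 32.7 ± 34.02 CPM of the same genes (n = 4). Of the 41 steady state tME1 cells, 10 were sorted as MK and not as erythroblasts. The 8 tME1 cells of L28, 1 of the 4 libraries, were all MK and had no count of Car1, Hemgn or Alas2. The neutrophil list summed to 89530 to 223971 CPM in the transplanted tME1 sums and 98886 to 299057 CPM in the steady state ones. The part of other cells in these levels was not tested.

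Erythroblasts were then set against the stem cell gates over libraries, as the reference point for the transplanted cells. Of the 9 genes, 8 rose in erythroblasts (edgeR quasi-likelihood test, Benjamini-Hochberg adjusted p under 0.05), and Car1 did not pass. Over all 12020 genes tested, 6.25% were called and 4.45% were called higher. The median log2 change of the 9 genes was 5.10, beside -0.44 for all genes. The comparison rests on 2 erythroblast libraries (L16 and L42) and 12 iHSC libraries.

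Car2 was at 3051 and 6285 CPM in the erythroblasts of L16 and L42, against a lowest, median and highest value of 864, 1380 and 1812 CPM in iHSC. The groups did not overlap, and the log2 change was 2.39 ± 0.28 (SE, edgeR adjusted p = 3.57e-06). Hemgn was at 319 and 384 CPM in erythroblasts, against 0, 19.9 and 134 CPM in iHSC (log2 change 4.03 ± 0.76, edgeR adjusted p = 0.00126). Rhd had 298 and 1286 CPM in erythroblasts, against 0, 0.44 and 33.4 CPM in iHSC. Rhag had 99.6 and 273 CPM in erythroblasts, against 0, 0 and 8.64 CPM in iHSC. For these genes too, every erythroblast value lay above every iHSC value. The share of all tested genes that separate in this way was not counted.

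Tfrc had 124 and 325 CPM in erythroblasts, against 1.62, 13.1 and 134 CPM in iHSC, and the groups overlapped (log2 change 3.48 ± 0.81, edgeR adjusted p = 0.00818). Without L42 its adjusted p was 0.287, and that of Ermap was 0.312, and DESeq2 did not call Rhag (0.0660) nor limma on mean log values Car2 (0.169). Alas2 and Slc4a1 were nearly absent from iHSC, with 10 and 3 counts in all 12 libraries together. All 10 Alas2 counts came from L81 and all 3 Slc4a1 counts from L55, so no fold is given. Car1 had 678 and 401 CPM in erythroblasts, against 0, 25.5 and 1372 CPM in iHSC (edgeR adjusted p = 0.358), and its groups overlapped. The L16 value rests on 3 tME3 cells, which held 2144 of its 2295 counts. limma voom with a library block did call Car1 higher (adjusted p = 1.30e-05). In the same libraries the neutrophil list summed to 178642 and 66700 CPM in erythroblasts and 388 to 21634 CPM in iHSC, and its part in the levels was not tested.

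Of 74 further genes listed for the red cell programme, 73 were in the table and 62 were tested here. Of these, 36 rose and 1 fell, with a median log2 change of 2.74 beside -0.44 for all genes. In haem synthesis 8 of 10 rose, among them the last enzyme Fech (log2 change 5.13) and the earlier enzymes Alad (3.63) and Urod (3.57). Of the membrane and cytoskeleton genes 11 of 15 rose. In iron handling 4 of 9 rose, among them the mitochondrial iron importer Slc25a37 (4.398) and the iron exporter Slc40a1 (4.69). Slc40a1 is also on the macrophage marker list. Over the summed EryA and EryB cells, the macrophage markers C1qb and Vcam1 were at 96.0 and 52.1 CPM, against 5.68 and 2.92 CPM in iHSC. The basophil markers Mcpt8 and Prss34 were at 928 and 853 CPM, against 1.36 and 1.01 CPM. The part of other cells in the Slc40a1 level was not tested.

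Late red cell genes followed, with 9 of 10 higher, for example the biliverdin reductase Blvrb (4.19) and the antioxidant enzyme Prdx2 (3.49). The transcription factors divided: Klf1 (5.51), Gata1 (4.399) and Nfe2 (1.71) rose, and the other 8 did not pass. Of the receptors and signalling genes, Bcl2l1, a survival protein, rose (3.26) and Kit, the stem cell factor receptor, fell (-2.62).

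Multipotent progenitors differed from the stem cell gates in 1 of the 7 genes that could be tested. Car2 fell to 766 ± 482 CPM in iMPP, against 1336 ± 298 CPM in iHSC (SD, n = 17 and 12), a log2 change of -0.89 ± 0.24 (edgeR adjusted p = 0.0119). Genes called lower were 4.72% of the 10461 tested, and 9.77% were called in either direction. The groups overlapped, and with at least 10 cells per library the adjusted p was 0.0506. L14, L49, L50, L51 and L74 held cells of both groups, and without them the log2 change was -1.30 (edgeR adjusted p = 0.00590). Alas2 and Slc4a1 were too low to test. Their iMPP values above 10 CPM for Alas2 came from L42 (102 CPM) and L4 (16.8 CPM), libraries that also held erythroblasts.

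Transplanted cells carried Car2, and little Car1 in most libraries of the first 5 days. Car1 was at 0, 2.42 and 0 CPM in the 3 day 1 libraries and had no count in any of the 125 day 3 cells, which allows up to 2.40% of cells with a count, as counting error only, since the cells share 3 libraries. L88, a library pooling days 1 and 3, had Car1 at 13.9 CPM (61 counts), in 14.8% of its 54 cells. On day 5 it was at 0 to 1.83 CPM in 6 libraries and 52.9 CPM in L66, a spleen library of 8 cells in which all 8 had Car1. On day 7 Car1 was at 0 CPM in L61 and L78, with a median of 26.4 CPM over 10 libraries. It reached 364 CPM in L55, with 5 day 7 cells beside MK and Fraction III cells, and 327 CPM in L60, with 51 cells.

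Within day 7 the Car1 signal sat in few cells. The 39 cells with the most Car1, of 389, held 97.5% of its summed counts. In all, 20 cells reached 100 CPM, 11 of them in L60 and 3 in L55. Of these 20 cells, 15 were of type tMPP2 and 4 of type tCP1. All 20 also had Car2 and Tfrc, 12 had Hemgn, 12 had Rhag and 11 had Ermap, and 2 had Alas2. The 4 tCP1 cells of day 7 had Car1 at 685 to 1856 CPM, Klf1 at 85.3 to 381 CPM and Gata1 at 72.3 to 404 CPM, and no count of Alas2 or Slc4a1.

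The tCP1 cell of L63 had Car2 at 6992, Ermap at 799 and Rhd at 394 CPM with 93828 counts in all. Nearly all late signal of day 7 was in a single cell too. That tME1 cell of L78 held 96.5% of the day 7 Alas2 counts and 82.8% of the Slc4a1 counts.

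**Figure D3:**
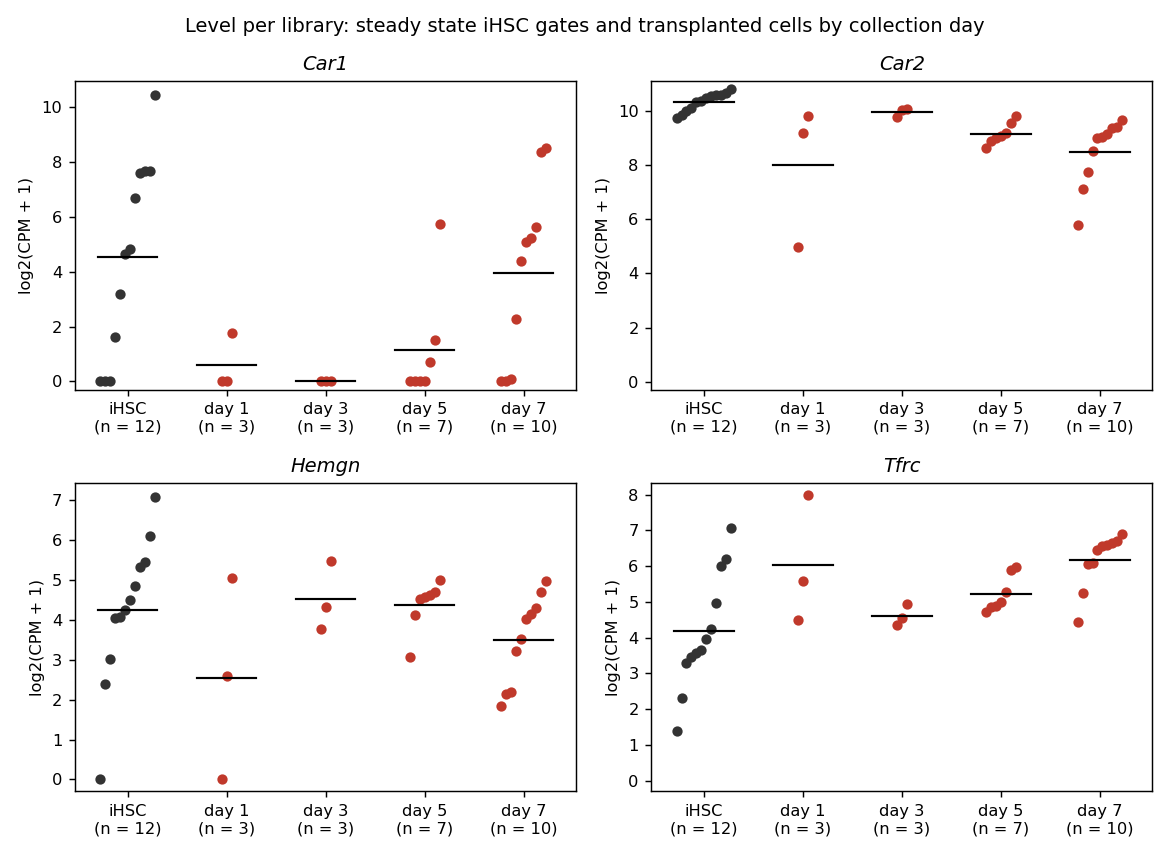
Level per library, as log2(CPM + 1), of Car1, Car2, Hemgn and Tfrc in the steady state iHSC libraries (dark) and in transplanted cells by collection day (red), with a line at the mean. Car1 is at or near 0 until day 5 except in L66 (52.9 CPM), and Car2 lies below all iHSC libraries on day 7. Tfrc lies higher on average on day 7 than in iHSC, and spreads widely on day 1 (21.6 to 255 CPM).

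The comparisons of each day with iHSC share the same 12 iHSC libraries. Against iHSC, none of the 9 genes passed on day 1 or day 3. At day 1, 3.14% of 13353 genes were called and at day 3 1.12%. At an unadjusted p under 0.05 there were 3 of the 9 genes on day 1, beside 15.7% of all genes, and 2 on day 3, beside 10.2%. DESeq2 called Car2 on day 1 and Car1 and Ermap on day 3, and limma voom called none on either day. Car1 and Ermap had no count on day 3, so they passed the low-count filter only through other groups. Their day 3 calls are therefore no separate support. Car2 on day 1 was at 581, 896 and 30.8 CPM, and the low library, L87, also had 32213 counts per cell at the median and 102585 CPM of the neutrophil list. Tfrc on day 1 was at 21.6, 46.9 and 255 CPM (lowest, median and highest of 3 libraries), and 1 cell of L83 held 52.4% of its counts. On day 3 Tfrc was at 23.9 ± 5.47 CPM (n = 3).

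Car2 fell on day 5. It was at 393, 537 and 911 CPM on day 5 (lowest, median and highest of 7 libraries), against 864, 1380 and 1812 CPM in iHSC (n = 12), a log2 change of -1.26 ± 0.37 (edgeR adjusted p = 0.0258). This was 1 of the 9 genes, where 7.57% of all genes were called and 3.29% were called lower. The call ended without L66, L68, L69 or L70, at adjusted p of 0.0507 to 0.0551, and with at least 10 cells per library (0.0691). Without L66, Car1 and Ermap were called lower (edgeR adjusted p = 0.00771 and 0.00437). All 10 day 5 counts of Ermap came from L66, so without it Ermap passed the low-count filter only through other groups. That Ermap call is therefore no separate support.

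On day 7 Car2 fell and Tfrc rose. Car2 was at 54.7, 521 and 823 CPM on day 7 (lowest, median and highest of 10 libraries), against 864, 1380 and 1812 CPM in iHSC. Every day 7 library lay below every iHSC library, with a log2 change of -1.51 ± 0.32 (edgeR adjusted p = 0.000784). How many of all genes separate in this way was not counted. Tfrc was at 20.6, 89.6 and 117 CPM on day 7, against 1.62, 13.1 and 134 CPM in iHSC, and the groups overlapped (log2 change 1.44 ± 0.47, edgeR adjusted p = 0.0253). Among all 13353 genes 20.8% were called on day 7, 10.4% higher and 10.4% lower, so 2 of 9 is close to the background. L49 and L55 held cells of both groups, and without them the log2 changes were -1.61 for Car2 and 1.83 for Tfrc (edgeR adjusted p = 0.00275 and 0.00830).

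The Tfrc call ended without L49 (adjusted p = 0.0505) in the fit of day 7 and iHSC alone (0.0610), with at least 10 cells per library (0.0724), and without libraries that also hold erythroblasts, CMP or MEP (0.0530). The list of 6 proliferation markers summed to 786 to 2013 CPM on day 7 and 213 to 853 CPM in iHSC. Tfrc averaged 23.9 CPM on day 3 and 78.5 CPM on day 7. Over the summed cells of days 3 and 7, the markers Mki67, Top2a and Ccnb1 were at 243 and 249, 300 and 258, and 103 and 134 CPM. The markers Birc5, Pcna and Mcm5 were at 271 and 329, 562 and 488, and 210 and 193 CPM. Their part in the Tfrc level was not tested. Hemgn was at 13.4 ± 9.50 CPM on day 7 and 32.8 ± 37.2 CPM in iHSC (n = 10 and 12, edgeR adjusted p = 0.130), and was called lower by DESeq2 (0.0312) and with at least 10 cells per library (0.0265).

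The 62 further programme genes were mixed on day 7, with 7 higher and 5 lower, near the background of 10.4% in each direction, and a median log2 change of -0.32 beside -0.10 for all genes. Gata1 rose to 46.0 ± 41.0 CPM, against 7.11 ± 9.01 CPM in iHSC (log2 change 2.74), and the housekeeping haem enzyme Alas1 rose too (2.49). Kit fell (-2.46), as did Lmo2 (-1.64), a cofactor of the GATA and TAL1 complex, and the ferritin light chain Ftl1 (-0.49). Gpx1, an antioxidant enzyme, rose (0.52), and Bpgm, which makes the red cell metabolite that lowers oxygen affinity, fell (-1.40). On day 5 none rose and 5 fell, where 3.29% of all genes were called lower, again with Kit (-1.33), Lmo2 (-1.15) and Ftl1 (-1.21).

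Between collection days none of the 9 genes passed, in the edgeR test or in any alternative run. The share of all genes called was 0% for day 3 against day 1, and 1 of the 9 had an unadjusted p under 0.05 beside 5.19% of all genes (693 genes). DESeq2 called 27 genes there. In day 5 against day 3 it was also 0%, with 0 of the 9 beside 2.6% (347 genes) and 20 calls by DESeq2. In day 7 against day 5 it was 0.404%, with 3 of the 9 beside 9.4%, and in day 7 against day 1 it was 2.04%, with 1 of the 9 beside 15.3%. For day 7 against day 5, Car1 averaged 83.3 ± 140 and 7.90 ± 19.8 CPM and Tfrc 78.5 ± 30.8 and 38.6 ± 14.95 CPM (n = 10 and 7, edgeR adjusted p = 0.460 and 0.503). In day 7 against day 1, 2 of the 62 programme genes rose, near the background of 2.04% of all genes called in either direction. These were Icam4, an erythroblast adhesion protein, at 37.9 ± 34.1 CPM on day 7 and 0.75 ± 0.71 CPM on day 1, and Gata1, at 46.0 ± 41.0 CPM on day 7 with no count on day 1 (edgeR adjusted p = 0.0137 and 0.0156). Gata1 thus passed the low-count filter only through the other groups of the fit, and its call is no separate support.

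On day 5 the spleen was compared with the libraries that held marrow. Car2 was at 393, 478, 537 and 514 CPM in the 4 spleen libraries, against 586, 765 and 911 CPM in the 3 marrow-containing ones. The groups did not overlap, but the change did not pass (log2 change -0.64 ± 0.16, edgeR adjusted p = 0.940). How many of all genes separate between these few libraries was not counted. Of 11915 genes 0% were called and 4.77% had an unadjusted p under 0.05, with 35 genes called by DESeq2. Of the 3 genes tested here, Car2 alone had an unadjusted p under 0.05.

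Car2 levels on day 7 are given by predicted type as a description without a test, since the types were made from the same values. Car2 was at 792 ± 134 CPM in tMPP2 (n = 5 libraries), 795 CPM in tMPP4 (n = 2) and 482 CPM in tMPP5 (n = 4), but 43.7 CPM in tMPP3 (n = 4), 25.2 CPM in tGM1 (n = 4) and 32.8 CPM in tME1 (n = 3). Tfrc ran otherwise, with 122 CPM in tMPP3, 88.1 CPM in tMPP5 and 76.005 CPM in tMPP2, and 8.12, 6.69 and 6.44 CPM in tGM1, tMPP4 and tME1. Hemgn was highest in tMPP4 (29.2 CPM) and tMPP2 (23.9 CPM) and lowest in tGM1 (0.10 CPM).

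Within the tMPP2 type, Car1 was at 5.35 CPM on day 1 (1 library), 0 on day 3 (n = 3), 0.52 ± 0.90 CPM on day 5 (n = 6) and 54.9 ± 98.7 CPM on day 7 (n = 5). Day 7 against day 5 was tested in this type, and none of the 9 genes passed, where 0.0567% of 14112 genes were called. At an unadjusted p under 0.05 there were 4 of the 8 tested, beside 12.5% of all genes. Car1 came nearest (edgeR adjusted p = 0.0880), with 229 CPM in L60, 36.3 CPM in L63, 9.01 CPM in L47 and 0 in 2 more libraries. It passed with at least 10 cells per library (adjusted p = 0.0221) and with no filter on low counts (4.88e-05). Ermap had no count in day 5 tMPP2 cells and 2.28 ± 5.10 CPM on day 7, all from L60.

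Transplanted and steady state cells of the same predicted type were compared over all days. In tMPP2, Car1 and Hemgn fell in transplanted cells, 2 of the 5 genes tested, where 0.707% of 10604 genes were called and 0.311% were called lower. Car1 was at 0, 0 and 229 CPM in transplanted tMPP2 (lowest, median and highest of 18 libraries), against 0, 257 and 2058 CPM in steady state tMPP2 (n = 8), a log2 change of -4.83 ± 1.10 (edgeR adjusted p = 0.0280). It had no count in 10 of the 18 transplanted libraries and in 1 of the 8 steady state ones, L74, and the groups overlapped.

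Hemgn was at 5.07, 25.5 and 45.7 CPM in transplanted tMPP2, against 23.3, 69.8 and 131 CPM in steady state tMPP2 (log2 change -1.37 ± 0.31, edgeR adjusted p = 0.0280). It was detected in 52.2% ± 15.6 of transplanted and 82.1% ± 14.7 of steady state tMPP2 cells (SD over libraries). The Car1 call ended under DESeq2 (adjusted p = 0.126), limma voom with a library block (0.104) and without L38, L51 or L52 (0.0509 to 0.0793). The Hemgn call ended with at least 10 cells per library (0.167) and without L37, L51 or L74 (0.0501 to 0.0806).

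In tMPP1, Car2 fell, 1 of the 3 genes tested, where 0.494% of 10326 genes were called and 0.223% were called lower. Transplanted tMPP1 cells had 391.8, 854 and 1325 CPM of Car2 (lowest, median and highest of 13 libraries), against 1139, 1536 and 1847 CPM in steady state tMPP1 (n = 5), with overlapping groups. The log2 change was -0.90 ± 0.18 (edgeR adjusted p = 0.0137), and the call ended without L49 or L51 (0.0578 and 0.0603) and with at least 10 cells per library (0.0525). Car1 did not pass the filter on low counts here and was at 0.12 ± 0.30 CPM in transplanted and 51.7 ± 81.9 CPM in steady state tMPP1 cells. With no filter it was called lower (log2 change -8.74, edgeR adjusted p = 1.98e-06). It was also called without L74, the steady state library with no Car1 count (-8.96, 2.39e-06). Car1 then passed the filter only through the steady state group, since transplanted tMPP1 cells held 2 counts in all. That call is therefore no separate support. None of the other programme genes tested passed in either type (49 and 53 genes).

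The gates behind the steady state cells of a type were not even. Of 145 steady state tMPP2 cells, 64 were MPP2 and 33 MPP1, and of 100 tMPP1 cells, 39 were Fraction II and 38 MPP1. MPP2 and MPP1 were also the multipotent gates with the most Car1. Gate makeup and transplantation cannot be told apart for these differences.

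**Figure D4:**
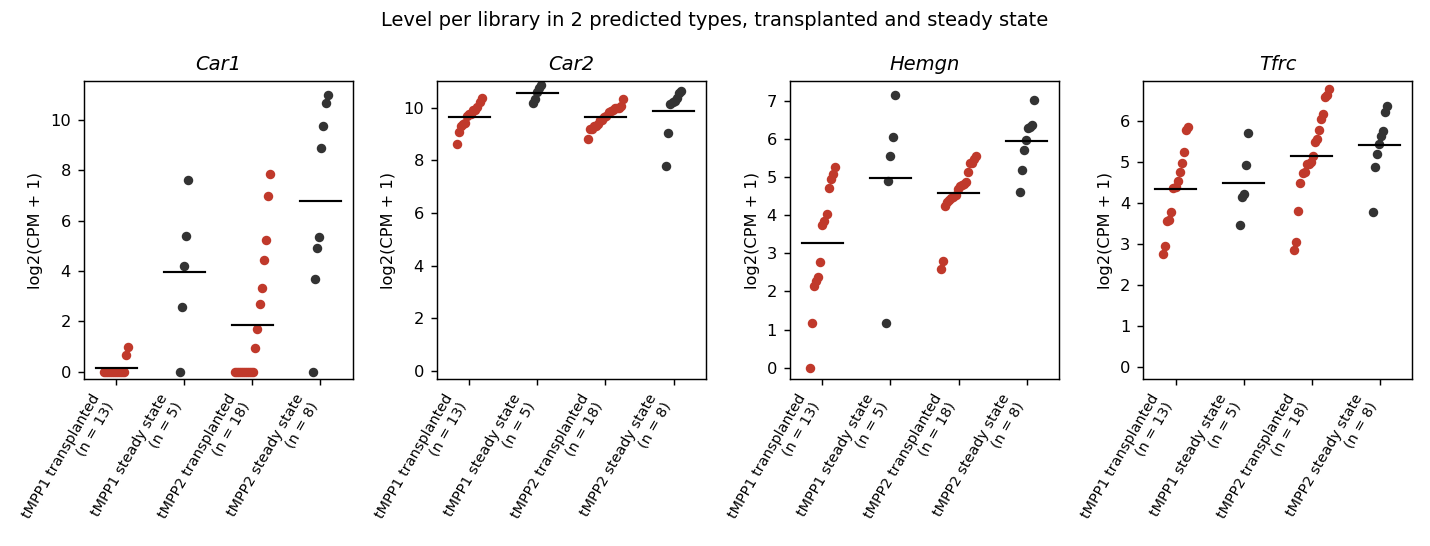
Level per library, as log2(CPM + 1), of 4 genes in tMPP1 and tMPP2 cells, transplanted (red, left of each pair) and steady state (dark), with a line at the mean. Car1 is at 0 CPM in most transplanted libraries, and Hemgn lies lower in transplanted (median 25.5 CPM) than in steady state tMPP2 (69.8 CPM).

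Detection per cell depended on the library as well as the population. Car1 was found in 100% of 21 B cells and 100% of 20 NK cells of library L54, cells outside the erythroid lineage (median 100321 counts per B cell). In L3 it was found in 5.26% of 19 B cells and 0% of 19 NK cells (97139 counts per B cell). L54 also held 6 Fraction III cells, with Car1 at 201 CPM. The Car1 level was 143 CPM in the B cells and 98.7 CPM in the NK cells of L54, and 0.45 CPM and 0 in those of L3, so both L54 values lay above the iHSC median of 25.5 CPM and the day 7 median of 26.4 CPM. ESLAM cells had Car1 in 100% of cells in L15, which also held MEP cells, and 0% in L73. ST_HSC cells had Alas2 in 94.7% of cells in L4, which also held erythroblasts, and 0% in L14, and Slc4a1 in 89.5% and 0%.

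After thinning to 20000 counts these shares were 90.5% and 0% for Car1 in B cells (L54 and L3) and 31.6% and 0% for Alas2 in ST_HSC (L4 and L14). The levels behind them were low for the late genes, with Alas2 at 16.8 CPM in the ST_HSC cells of L4 against 1525 CPM in its EryB cells. The origin of these counts, for Car1 and for the late genes, was not tested.

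**Figure D5:**
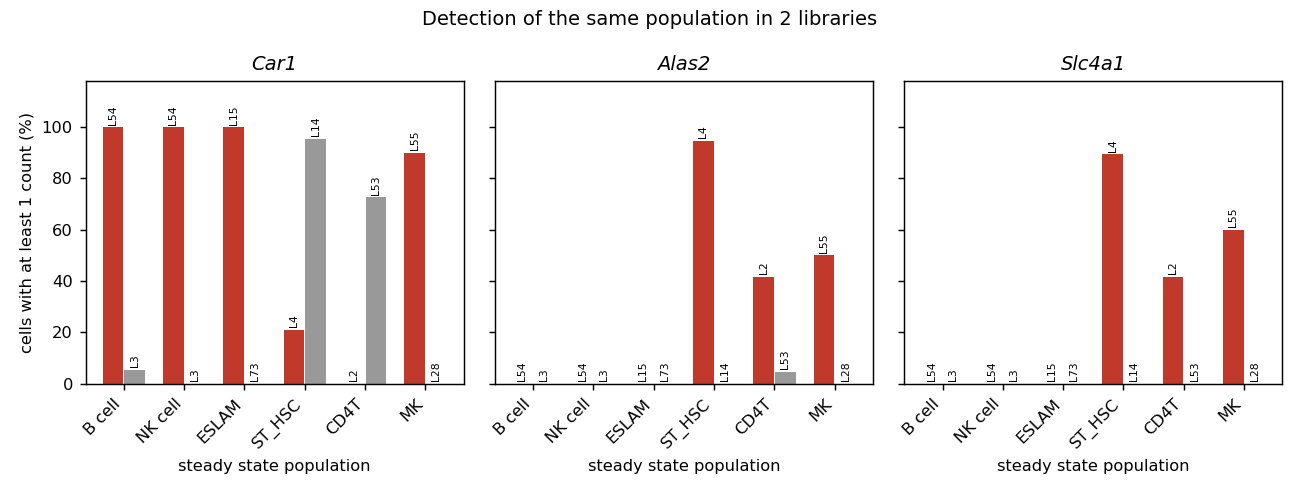
Share of cells with at least 1 count of Car1, Alas2 and Slc4a1 in 6 steady state populations, each sorted into 2 libraries whose names stand above the bars (the first library of a pair in red, the second in grey). The same population differs from 100% to 5.26% for Car1 in B cells and from 94.7% to 0% for Alas2 in ST_HSC.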

How the data were processed

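Modified Smart-seq2 libraries of mouse cells were used as a deposited table of whole-number counts per gene and cell, with the authors' annotation of phenotype and predicted type. Per the submitters' processing notes, TopHat, HTSeq and mm10 were used, without versions given in the sources used here. Of 2879 cells, 578 without annotation were left out, and 0 pairs of identical cell columns were found. Library totals were 745742 to 30433157 counts. Counts were summed per library and group (at least 5 cells), with the library as replicate, and given as CPM. Sums were tested with edgeR 4.0.16 (quasi-likelihood, filterByExpr, TMM) in R 4.3.3, with Benjamini-Hochberg adjustment over all genes tested and a threshold of 0.05. Alternatives were RLE scaling, no filter, DESeq2 1.42.0, limma 3.58.1 (voom with a library block, or mean log values), at least 10 cells, fewer groups, some cell types left out, and each library left out in turn. The code was tested on simulated data. No doublet caller was run. The EryB cells of L4, which its label does not name, were left out of the erythroblast test. The 9 genes, the lists and the comparisons were chosen with earlier results of these data known. From each group of the programme list, up to 4 called genes per direction with the smallest p could be named. The 3 genes most like a given gene were those with the highest Pearson correlation of log2(mean CPM + 1) over populations, among genes reaching 20 CPM. Promoter windows came from RefSeq and gene positions from GENCODE M21. Some genes of the lists are not reported here.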

Additional observations from a re-analysis of the deposited data

Results flagged for a closer look

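In 17 of 34 groups and genes examined, 1 library lay far from the others of its group (Dixon's test at 95%). The chance share of about 1 in 20 holds for normally spread values only. Many of these groups hold libraries at or near 0 CPM, where 1 or 2 counts can set a library apart. The 17 therefore cannot be compared with that share. On day 5, L66 stood apart for Car1 (52.9 CPM, next highest 1.83), Ermap (9.27), Rhd (9.27), Alas2 (1.85) and Slc4a1 (1.85), and L72 for Rhag (1.57). L66 held 8 cells and had 20298 CPM of the neutrophil list, the highest of the 7 day 5 libraries, and the part of other cells or depth in its levels was not tested. On day 7, L78 stood apart for Alas2 (26.8 CPM) and Slc4a1 (12.3), L47 for Rhag (17.3) and L60 for Ermap (11.4). In steady state tMPP1, L51 stood apart for Car1 (196 CPM) and Ermap (21.4), L37 for Alas2 (0.452) and L49 for Rhag (2.90). In steady state tMPP2, L52 stood apart for Ermap (188 CPM) and Rhag (32.1), and L23 for Alas2 (0.411). Alas2 was at 4.99 CPM in L80, a library pooling days and used in no comparison by day, against at most 3.24 CPM in the iHSC libraries.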

How the results depend on the processing

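No paired analysis was possible because the labels give the groups no shared replicate numbers. Some libraries held cells of both groups, and these were handled by a library block in voom and by leaving them out. No called change of the 9 genes changed sign in these alternatives, but uncalled ones did, for example Car2 on day 7 against day 1 (0.14, and -0.41 by voom). Of the called changes of single genes, 103 stayed called and 11 did not across the alternatives, and 98 and 15 when 1 library was left out. The number of the 9 genes called moved as follows. For iMPP against iHSC it was 2 with no filter and 2 on mean log values, and 0 with at least 10 cells. For day 1 against iHSC it was 1 with no filter, by DESeq2 and on mean log values, and for day 3 it was 2 by DESeq2. For day 5 it was 2 by voom and 2 with at least 10 cells, the latter being Car1 and Ermap in a fit without L66. For day 7 it was 1 with only the 2 groups compared and 1 without libraries that also hold erythroblasts, CMP or MEP, an alternative chosen after seeing the data. For tMPP1 it was 3 with no filter, 2 by voom and 0 with at least 10 cells, and for tMPP2 4 with no filter and 1 by DESeq2 and by voom. For tMPP2 on day 7 against day 5 it was 2 with no filter and 1 with at least 10 cells. The cause was not tested.

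Leaving out 1 library gave 6 to 8 genes for erythroblasts, 0 to 1 for day 1, 0 to 0 for day 3, 0 to 2 for day 5, 1 to 2 for day 7, and 0 to 2 for tMPP1 and for tMPP2. It gave 0 to 0 for tMPP2 by day, between days and between organs. After thinning, populations with over 50% of cells detected numbered 2 for Hemgn (unthinned 13), 8 for Tfrc (22), 2 for Alas2 (4), 2 for Slc4a1 (5), 3 for Rhag (6), 3 for Ermap (8) and 4 for Rhd (8). With libraries of at least 1 cell, 0 day and type groups passed 50% for Car1, Ermap and Rhd (1 each with 5 cells).

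Counts over all genes moved more. They ranged over the alternatives within 724 to 1873 for erythroblasts (751 in the fit reported), 680 to 2254 for iMPP (1022), 23 to 1002 for day 1 (419), 15 to 313 for day 3 (149), 564 to 2201 for day 5 (1011) and 1592 to 4074 for day 7 (2784). Between days they were 0 to 30 for day 3 against 1 (0), 0 to 20 for day 5 against 3 (0), 13 to 517 for day 7 against 5 (54) and 71 to 1048 for day 7 against 1 (273). They were 0 to 35 for the day 5 organs (0), 31 to 309 for tMPP1 (51), 58 to 303 for tMPP2 (75) and 8 to 143 for tMPP2 by day (8). Without L42 or L16, 306 and 465 genes were called for erythroblasts. CMP and MEP had 1 library each, so their levels have no replicate check.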

Other observations

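The late genes had close neighbours among other red cell genes over the 28 steady state populations. Alas2 and Slc4a1 were most like Trim10 (Pearson r 0.98 for both), Apol11b (0.98 for both) and Hbq1b (0.97 and 0.96). Rhag and Rhd were most like Tspo2 (0.98 and 0.99), and Ermap was most like Slc38a5 (0.98). These are descriptions over points that share libraries. The 2 transplanted tCP1 cells of the pooled-day library L77 had no Car1 count. One of them had Hemgn at 1148 CPM and Car2 at 1627 CPM, and no count of Tfrc, Alas2, Slc4a1, Rhag, Ermap or Rhd.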
